A study of Mus musculus with 10 samples.

Results

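The genes described here are the glucose, phosphate, bicarbonate, sulfate, proton and other sodium-coupled or anion-exchanging solute carriers of 9 families. Members were taken as probe sets whose platform annotation gives a single gene symbol that starts with Slc2a, Slc4a, Slc5a, Slc9a, Slc13a, Slc17a, Slc20a, Slc26a or Slc34a followed by a digit, leaving out Slc2a1. This gave 70 genes and 132 probe sets, of 18193 genes and 45037 probe sets tested. The symbol rule also takes up 4 genes that encode no transporter, the scaffold genes Slc9a3r1 and Slc9a3r2, the adaptor gene Slc4a1ap and the pseudogene Slc2a4rg-ps. Whole urogenital systems of mouse embryos at embryonic day 15.5 were profiled on Affymetrix arrays, 1 array for each of 10 RNA pools. Each pool held 1 to 2 urogenital systems. The 5 homozygous pools came from embryos with a pair of cneo alleles of Wnt9b (Wnt9bcneo/cneo). The 5 control pools carry the genotype label Wnt9bcneo/+, while their titles call them WT. How the cneo allele acts on Wnt9b is not stated in the labels.

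Solute carriers of these families move sugars, phosphate, sulfate, bicarbonate, protons and organic anions across cell membranes, many of them by using the sodium gradient kept up by the sodium pump. In the kidney the proximal tubule carries a characteristic set. Apical cotransporters take glucose, phosphate, sulfate and carboxylates back from the filtrate, and basolateral carriers pass glucose and bicarbonate on to the blood. Intercalated cells of the distal nephron and collecting duct use anion exchangers for acid and base transport, and neurons use members of the same families to take up glucose and choline or to fill vesicles. Wnt9b is a secreted signal of the ureteric bud needed for the formation of nephrons, so the comparison asks how the transporters of maturing tubules and of other cells differed between the genotypes.

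The deposited values are linear intensities scaled to a trimmed mean of 500, and precision is limited by how many arrays there are. By its brighter probe set Wnt9b lay between 47.8 and 201 in homozygous pools, against 121 to 143 in control pools. Its log2 difference, homozygous minus control, was -0.23 and was not called by limma (adjusted p = 0.803). A dimmer probe set was at 0.43, with 6.33 to 36.1 in homozygous and 2.64 to 17.6 in control pools. The 3' to middle ratio of actin, a sign of RNA degradation, reached 97.7 for homozygous pool 5 and 94.8 for control pool 1, with 9.87 to 33.1 on the other 8 arrays. Xist, expressed from the inactive X chromosome, was high (13819 to 19738) in homozygous pools 3, 4 and 5 and low (35.1 to 67.2) in the other 7 pools. The calls of members, markers and partner genes are given with and without these pools. Of 6 urogenital marker genes 5 were measured, and none of them was at the floor on all arrays. Their median log2 difference, homozygous minus control, was -0.53, with 4 of 5 below 0 and Gata4 (0.74) above. By limma 2 had an unadjusted p under 0.05, Pax8 (-1.33) and Emx2 (-0.84), and none an adjusted p under 0.05. Intensities under 16 were set to this floor before log2 was taken, which was the case for 19.9% to 21.1% of probe sets in homozygous pools and 22.2% to 23.0% in control pools.

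Of the 70 member genes, 3 fell in homozygous pools, all of them transporters of the proximal tubule (limma, Benjamini-Hochberg adjusted p under 0.05 over all 18193 genes). They are the monocarboxylate transporter gene Slc5a8, the glucose transporter gene Slc5a1 and the phosphate transporter gene Slc34a1. These are 4.29% of the members, and 0.429% of all genes were called lower. No member was called higher by limma, where 0.539% of all genes were, and 24 members had an unadjusted p under 0.05. Of these 19 were lower and 5 higher, beside 5.89% of all genes lower and 9.83% higher at this level. With values at the floor taken as equal, every homozygous pool lay below every control pool for 7 members (10%), beside 2.1% of all genes. The opposite order was found for 1 member, Slc26a7, beside 2.61% of all genes. The median log2 difference, homozygous minus control, was -0.14 over the members and 0.00 over all genes, and 45 of 70 members lay below 0. In bulk tissue, fewer cells of a type and less RNA per cell cannot be told apart.

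Split by role, the 16 genes listed here as proximal tubule transporters all had a log2 difference below 0, with a median of -1.15, and the 3 members that fell are among them. The list was made with earlier results known and leaves out members found in the proximal tubule among other places, such as Slc26a6 (0.03), Slc2a9 (0.07) and Slc20a2 (-0.11). The other 54 members had a median of -0.06, with 29 below 0 and none called by limma. Of these 54, 12 had an unadjusted p under 0.05, 7 lower and 5 higher, beside 5.89% of all genes lower and 9.83% higher. By family, the median was -0.63 in the 13 genes of Slc5a and in the 3 of Slc34a, -0.36 in the 5 of Slc13a and -0.23 in the 10 of Slc4a. It was -0.17 in the 9 genes of Slc9a, -0.13 in the 7 of Slc17a and -0.08 in the 2 of Slc20a. Above 0 lay the medians of the 11 Slc2a genes (0.07) and of the 10 Slc26a genes (0.17). Mean intensity was under 100 in both genotypes for 32 members, 5 of them proximal tubule transporters.

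**Figure D1:**
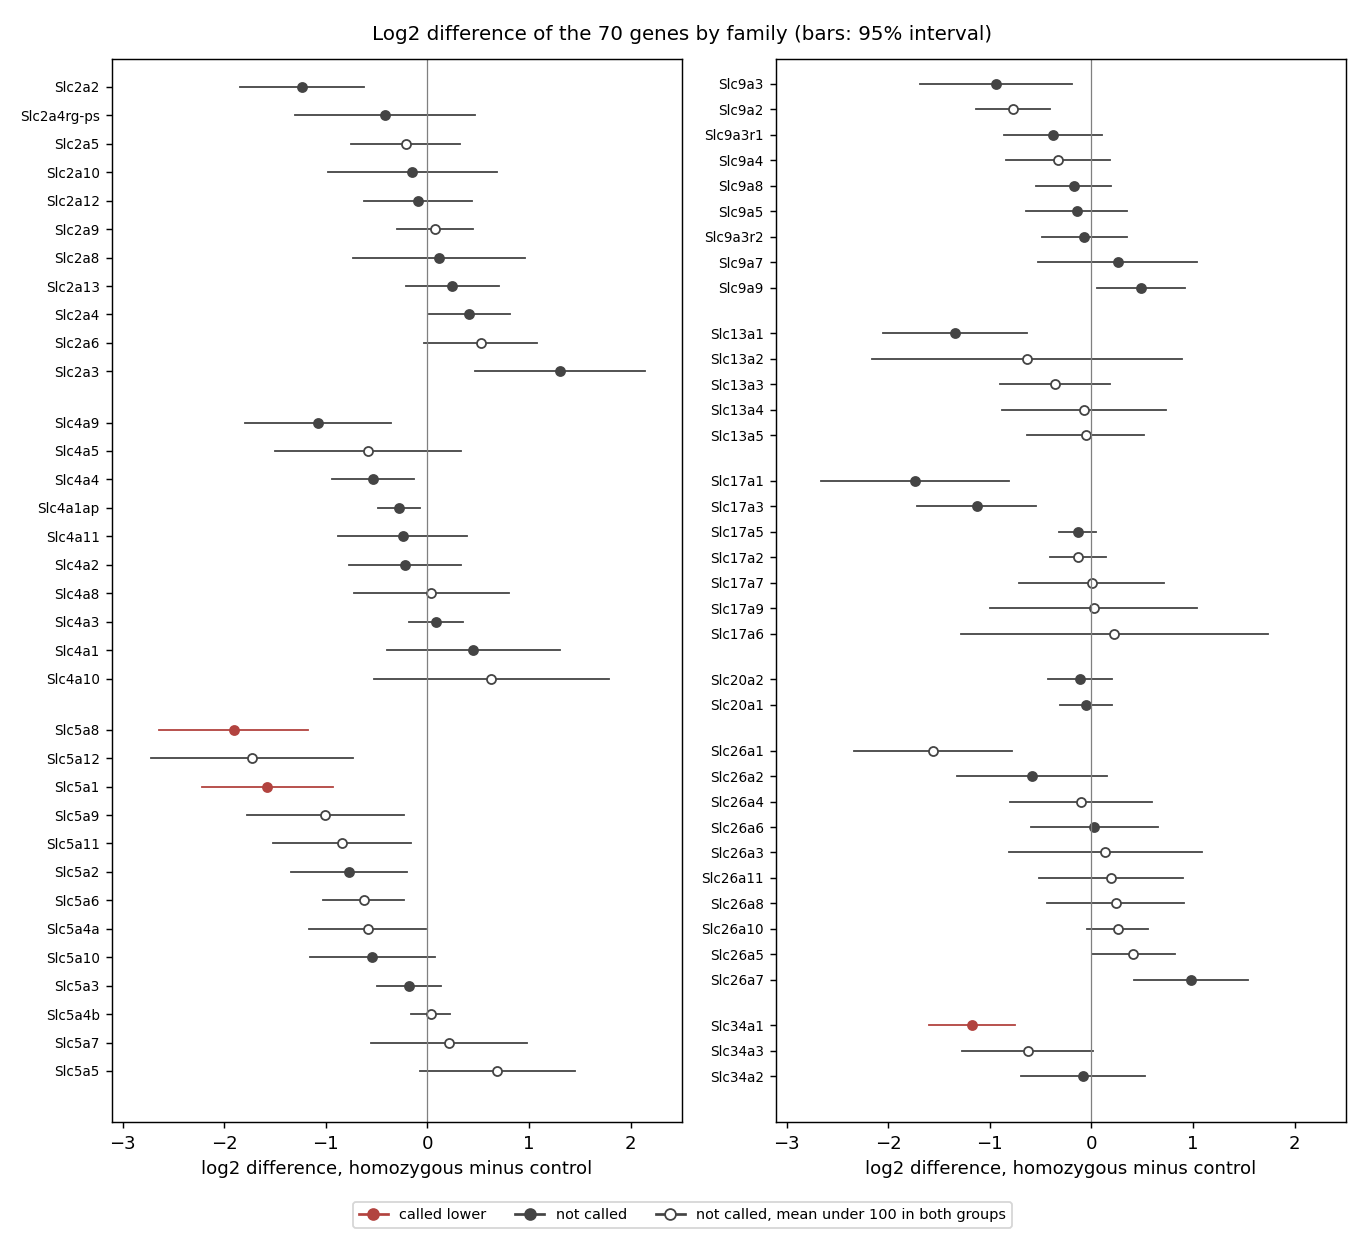
Log2 difference of intensity, homozygous minus control, for the 70 member genes by family, with 95% intervals from limma; red marks the 3 genes called lower and open circles mark the 32 genes with a mean intensity under 100 in both genotypes. The Slc5a panel reaches furthest to the left, down to -1.91 for Slc5a8, and Slc2a3 (1.31) reaches furthest to the right.

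The sequences before the starts of the 3 genes that fell are printed here because these genes carry the calls. The 250 bases upstream are shown (RefSeq promoter table, GRCm38.p6, plus strand, 5′ to 3′), with the letters GTTAAT, the core of the binding site of the tubule factor HNF1, in capitals on either strand. The windows are chr10:88885742-88885991, chr5:33103969-33104218 and chr13:55399398-55399647, in this order, and the last ends inside the listed span of Slc34a1, whose gene table entry starts earlier than the promoter table's start.
Slc5a8: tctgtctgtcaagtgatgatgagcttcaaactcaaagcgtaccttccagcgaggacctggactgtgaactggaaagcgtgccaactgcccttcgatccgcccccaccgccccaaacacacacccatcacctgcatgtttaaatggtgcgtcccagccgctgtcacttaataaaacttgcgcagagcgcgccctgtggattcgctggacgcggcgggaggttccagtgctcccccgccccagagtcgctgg
Slc5a1: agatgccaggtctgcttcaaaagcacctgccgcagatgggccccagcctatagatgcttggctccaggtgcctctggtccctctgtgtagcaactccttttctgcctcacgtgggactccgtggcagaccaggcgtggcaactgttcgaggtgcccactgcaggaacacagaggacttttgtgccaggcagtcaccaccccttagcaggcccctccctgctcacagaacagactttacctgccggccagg
Slc34a1: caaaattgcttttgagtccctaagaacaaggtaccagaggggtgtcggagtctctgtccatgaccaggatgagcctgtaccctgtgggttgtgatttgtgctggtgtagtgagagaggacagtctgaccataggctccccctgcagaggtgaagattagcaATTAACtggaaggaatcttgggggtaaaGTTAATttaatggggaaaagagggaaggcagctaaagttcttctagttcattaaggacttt
The Slc5a8 window holds 17 CpG dinucleotides and is 58.8% G and C. That of Slc5a1 holds 6 CpG and is 60% G and C, and that of Slc34a1 holds 1 CpG and is 46.4% G and C. Over all 32851 promoters of the table the medians were 6 CpG and 52.4% G and C.

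In the Slc34a1 window GTTAAT begins 61 bases before the start on the plus strand, and its reverse complement begins 89 bases before the start. These 6 letters, searched on both strands, occur in 6.43% of all promoters, and among the 53 member genes with a promoter in the table they occur in Slc26a3, Slc34a1 and Slc5a10. The longer HNF1 letters GTTAATNAT, which contain them, occur in 0.737% of all promoters and in 1 member, Slc26a3. The HNF4 letters CAAAGTCCA occur in 0.384% of all promoters and in no member with a promoter here. The letters TATAAA occur in 12.4% of all promoters and in 9 members, Slc13a2, Slc26a1, Slc26a10, Slc26a3, Slc26a4, Slc4a10, Slc4a5, Slc5a4a and Slc5a7. None of the 3 genes that fell holds TATAAA in its window.

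Slc5a8 (GRCm38.p6, chromosome 10, 88885992 to 88929515) encodes an apical cotransporter that takes up lactate and other monocarboxylates with sodium. Its intensities were 139.8, 189, 99.3, 226 and 84.6 in homozygous pools 1 to 5, against 373, 720.3, 701, 509.5 and 386 in control pools 1 to 5. The highest homozygous pool, pool 4, stayed below the lowest control pool, pool 1. The log2 mean was 7.11 ± 0.60 in homozygous and 9.01 ± 0.45 in control pools (SD, n = 5 each). Slc5a8 fell by 1.91 on the log2 scale, with an SE of 0.32 and an adjusted p of 0.0426, a level 3.75-fold lower. Its single probe set leaves no second measure of the gene on the array.

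Slc5a1 (chromosome 5, 33104219 to 33162699) encodes the high-affinity sodium and glucose cotransporter of the late proximal tubule and the intestine. Homozygous pools 1 to 5 had 100.1, 124, 112, 215 and 206, and control pools 1 to 5 had 627, 509, 426, 319 and 334. The groups did not overlap. Homozygous pools 4 and 5, the highest of their group, and control pools 4 and 5, the lowest of theirs, came nearest to each other. The gene fell by 1.57 ± 0.28 in log2 intensity (SE; adjusted p = 0.0473), 2.98-fold. Its dimmer probe set was the only one of the 132 member probe sets called in the fit over all probe sets, at -1.71 ± 0.19 (SE; adjusted p = 0.0176). In that fit 0.12% of all probe sets were called lower and 0.111% higher.

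Slc34a1 (chromosome 13, 55399622 to 55414695) encodes the main apical sodium and phosphate cotransporter of the proximal tubule, the target of parathyroid hormone and FGF23. Its values were 294, 448, 263, 384 and 346 in homozygous pools 1 to 5 and 760.4, 565, 1018, 823 and 746 in control pools 1 to 5. The groups did not overlap, and within each the spread was the smallest of the 3 genes (SD 0.30 and 0.31 on the log2 scale in homozygous and control pools, n = 5 each). Slc34a1 fell by 1.17 ± 0.19 (SE; adjusted p = 0.0364), 2.26-fold.

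The calls lie close to the threshold. Leaving out each pool in turn, Slc5a1 passed in none of 10 fits (adjusted p 0.053 to 0.134), whichever pool was left out. Slc5a8 passed in 3, without homozygous pool 2, homozygous pool 4 or control pool 2 (0.0409 to 0.129 over the 10 fits), and Slc34a1 in 2, without homozygous pool 2 or control pool 2 (0.0199 to 0.102). Across the same fits the log2 differences kept within -2.08 to -1.73 for Slc5a8, -1.72 to -1.44 for Slc5a1 and -1.29 to -1.07 for Slc34a1. Without the pair of arrays of high actin ratio no member was called by limma, and 24 had an unadjusted p under 0.05. The shares of all genes at this level given above are from the fit to all pools and do not apply to fits without some pools. Slc5a8 was then at -1.85 (adjusted p = 0.0834), Slc5a1 at -1.57 (0.0839) and Slc34a1 at -1.18 (0.093). Without the 3 Xist-high pools no member was called either, 17 had an unadjusted p under 0.05, and the genes were at -1.67 (adjusted p = 0.256), -1.94 (0.155) and -1.08 (0.335).

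**Figure D2:**
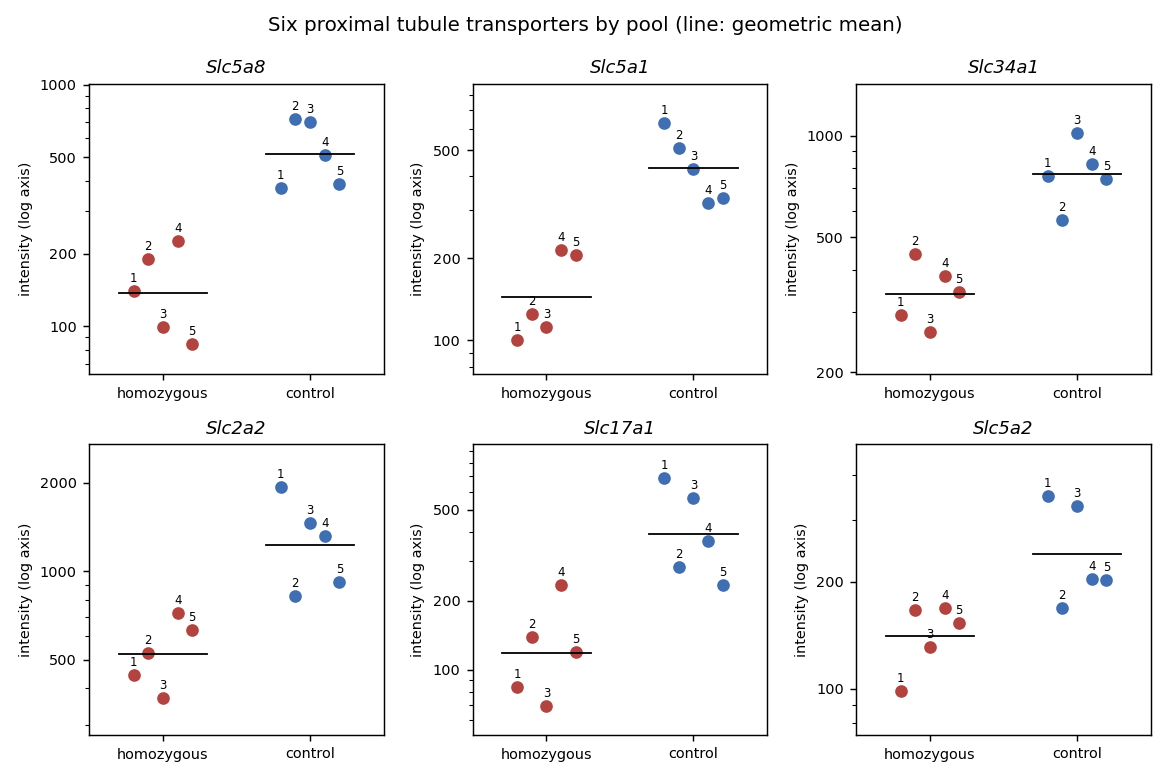
Intensity (log axis) of 6 proximal tubule transporter genes in homozygous pools (left, red) and control pools (right, blue), each point a pool with its number and each line a geometric mean. Slc5a8, Slc5a1, Slc34a1 and Slc2a2 show no overlap between the genotypes, while Slc17a1 meets at 235 and Slc5a2 at 169.

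Other apical carriers for sugars had values in the same direction without passing the test. Slc5a2, the high-volume glucose cotransporter of the early proximal tubule, had 98.7, 167, 131, 169 and 153 in homozygous pools and 349, 169, 327, 204 and 203 in control pools. Control pool 2 fell among the homozygous values, and the log2 difference was -0.77 ± 0.25 (SE; adjusted p = 0.177). Its second, dimmer probe set was at 0.55, the opposite sign. Slc5a10, a fructose and mannose cotransporter, was at -0.54 ± 0.27 (adjusted p = 0.387). Basolateral glucose exit in the early proximal tubule runs through Slc2a2, whose intensities were 442, 526, 369.9, 719.5 and 630.2 in homozygous pools against 1931, 824, 1461, 1316 and 919.9 in control pools. No homozygous pool reached a control pool. The difference of -1.23 ± 0.27 had an adjusted p of 0.0699.

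Carriers of organic anions and monocarboxylates included some of the largest differences. Slc5a12, a low-affinity lactate cotransporter, had 15.4, 21.4, 22.3, 47.1 and 18.6 in homozygous pools and 194, 65.8, 87.5, 56.8 and 41.5 in control pools. Its level was near the floor in homozygous pools, only pool 4 overlapped the control range, and the difference was -1.73 ± 0.44 (adjusted p = 0.097), with -0.74 in its other probe set. Slc17a1 and Slc17a3, neighbouring genes on chromosome 13 for apical urate and phosphate-linked anion carriers, had a similar pattern over the pools. Slc17a1 had 84, 139, 69.1, 235 and 119.7 in homozygous pools, against 691, 279.9, 566, 364 and 235 in control pools (-1.74 ± 0.41, adjusted p = 0.082). Slc17a3 had 161, 227, 178, 303 and 159 in homozygous pools, against 555, 299, 613, 453 and 338 in control pools (-1.13 ± 0.26, adjusted p = 0.0782). For both genes homozygous pool 4 was the highest of its group and touched the lowest control pool. Slc17a2, from the same stretch of chromosome 13, was at the floor in all homozygous pools and in 4 of 5 control pools, so its difference carries no information here.

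Sulfate and dicarboxylate carriers were not called by limma, Slc13a1 and Slc26a1 having an unadjusted p under 0.05. Slc13a1, the apical sulfate cotransporter, had 44.5, 80.2, 31.2, 39.3 and 45 in homozygous pools and 153, 109, 177, 72.5 and 97 in control pools. Homozygous pool 2 overlapped control pool 4, and the difference was -1.34 ± 0.31 (adjusted p = 0.0811). Slc26a1, the basolateral sulfate exchanger, had 51, 11.1, 23.7, 34 and 5.82 in homozygous pools, against 83.4, 57, 80.6, 104 and 58.8 in control pools. These groups did not overlap, 2 homozygous values were under the floor of 16, and the difference was -1.56 ± 0.34 (adjusted p = 0.0715), with -1.30 in the other probe set. The citrate and dicarboxylate carriers Slc13a2 (-0.64 ± 0.68, adjusted p = 0.693) and Slc13a3 (-0.36 ± 0.24, adjusted p = 0.526) overlapped between the genotypes. Slc13a2 turned to 0.36 without the Xist-high pools. The second renal phosphate carrier of the Slc34a family, Slc34a3, was at -0.63 ± 0.29 (adjusted p = 0.334), with values up to 43.6 in homozygous and 60.1 in control pools.

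Acid and base transport of the proximal tubule runs through the apical sodium and proton exchanger Slc9a3 and the basolateral sodium bicarbonate cotransporter Slc4a4. Slc9a3 had 64.4, 67.9, 63.4, 125 and 87.9 in homozygous pools and 259.6, 83.2, 196, 150.0 and 125 in control pools. The groups overlapped through control pools 2 and 5, and the difference was -0.94 ± 0.33 (adjusted p = 0.203). For Slc4a4, the homozygous pools gave 519.5, 594, 516, 662 and 793, and the control pools gave 1142, 761, 1113, 797 and 699. Only homozygous pool 5 reached the control range. The difference of -0.54 ± 0.18 (adjusted p = 0.181) was smaller than that of most other proximal transporters, and 4 further probe sets of the gene lay between -0.49 and 0.04.

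The mean log2 intensity of the 16 proximal transporters was 6.39, 6.76, 6.28, 7.02 and 6.59 in homozygous pools 1 to 5, against 8.10, 7.53, 8.10, 7.49 and 7.39 in control pools 1 to 5. All homozygous pools lay below all control pools, at 6.61 ± 0.30 and 7.72 ± 0.35 in homozygous and control pools (SD, n = 5 each), a difference of -1.11. Homozygous pool 4 held the highest homozygous value of 9 of the 16 genes and pool 3 the lowest of 7. On the control side, pool 1 held the highest value of 9 genes and pool 2 the lowest of 7. The order of the pools differed between genes, and control pool 1 was the lowest of its group for Slc5a8. The titles of homozygous pools 1 to 4 end in CHP and those of the other 6 pools do not. Homozygous pool 5, at 6.59, lay within the range of those 4 pools. All 16 differences stayed below 0 with each pool left out in turn and without the high-ratio actin arrays, where the median was -1.05. Without the Xist-high pools 15 were below 0, with a median of -1.13.

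**Figure D3:**
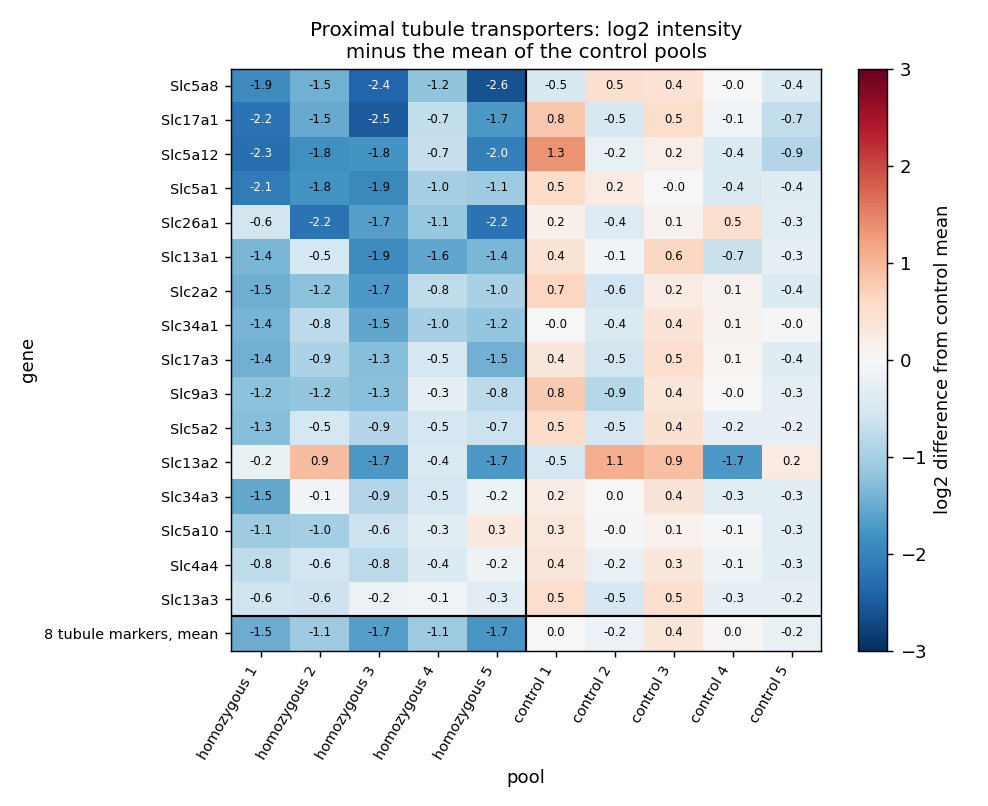
Log2 intensity of the 16 proximal tubule transporters in each pool (homozygous pools left of the line, control pools right), each minus the mean of the control pools, with the mean of 8 proximal tubule markers in the bottom row. Homozygous columns 1 and 3 are the deepest blue over most genes, and Slc13a2 scatters most within each genotype.

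General markers of proximal tubule cells that are no members moved with these genes. Of 8 measured (Lrp2, Cubn, Amn, Hnf4a, Fbp1, Vil1, Mep1b and Gatm), 6 were called lower, all but Fbp1 and Gatm, where 0.429% of all genes were. The summed intensity was 2336 to 3794 in homozygous pools and 6388 to 9917 in control pools. Their mean log2 difference was -1.41. None of the 8 was called by limma without the high-ratio actin arrays or without the Xist-high pools, 7 having an unadjusted p under 0.05 in each of these fits. With 1 pool left out, 6 were called without homozygous pool 2 or control pool 2, 4 without homozygous pool 4, and none without any of the other 7 pools. The median of the 8 was -1.36 without the high-ratio actin arrays and -1.5 without the Xist-high pools. After subtracting the markers' mean from each transporter in each pool, 5 of 16 transporters had a difference below 0 and 11 above. Any gene with a log2 difference above -1.41 lies above 0 on this scale, so the count does not set the transporters apart. The relative difference was -0.49 for Slc5a8, -0.16 for Slc5a1 and 0.24 for Slc34a1, and each overlapped between the genotypes. Slc4a4 alone of the 16 did not overlap on this relative scale, with 0.64 to 1.72 in homozygous pools and -0.06 to 0.49 in control pools, a difference of 0.88. On the same scale every homozygous pool lay above every control pool for 75.7% of all genes, so this order does not set Slc4a4 apart. No test was made on the relative scale, and the part of cell number in these differences was not tested.

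Partner genes that work with the transporters lay mostly below 0 as well. Of 25 measured partner genes, 2 fell and none rose by limma, where 0.429% of all genes were called lower and 0.539% higher. At an unadjusted p under 0.05 were 16, all of them lower, beside 5.89% of all genes lower. The median was -0.75 with 22 below 0. Fbp1 (-1.27), like Hnf4a, is counted both here and among the proximal tubule markers above. Pdzk1, the scaffold that binds apical transporters, fell by 1.36 ± 0.25 (SE; adjusted p = 0.0473). Hnf4a, a transcription factor of tubule genes that is also among the markers above, fell by 1.51 ± 0.21 (adjusted p = 0.0295). Without the high-ratio actin arrays Pdzk1 was at -1.29 (adjusted p = 0.112) and Hnf4a at -1.33 (0.0729), and without the Xist-high pools they were at -1.22 (0.377) and -1.43 (0.219). With 1 pool left out, Pdzk1 was called in 2 of 10 fits and Hnf4a in 3. The sodium pump subunit Fxyd2 was at -1.37 (adjusted p = 0.0753), the membrane-bound carbonic anhydrases Car4 and Car12 at -1.28 (0.0707) and -0.91 (0.0641), and G6pc, which releases free glucose, at -1.46 (0.0647). The receptors for phosphate hormones were at -0.85 for Pth1r, -1.43 for Kl and -0.31 for Fgfr1, with adjusted p-values of 0.173, 0.122 and 0.214. The linker Ezr was at -0.77 (0.0987), and Msn, of the same protein family, at 0.11 (0.663).

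Marker genes of other cells in the tissue, which are no members, varied as well. Those of the loop and distal tubule summed to 2012 to 4106 in homozygous pools and 4122 to 9810 in control pools (median log2 difference -1.12, 0 of 5 called by limma, 4 at an unadjusted p under 0.05, of which Pvalb was higher, at 2.07), and those of the collecting duct to 3461 to 5832 in homozygous and 6347 to 13507 in control pools (-0.73, 0 of 6 called, 5 unadjusted). Early nephron markers had a median of -0.98 with 1 of 4 called lower, Cdh6, and podocyte markers a median of -0.56 with 0 of 3 called and 1 unadjusted. Macrophage markers had 2 of 4 called higher, Adgre1 and Csf1r, and a median of 0.30. Of the other 2, Cd68 was at -0.23 and overlapped between the genotypes. C1qa was at the floor on all arrays and carries no information, so the list did not rise as a whole. Without the high-ratio actin arrays Cdh6 was at -0.80 (adjusted p = 0.093), Adgre1 at 0.65 (0.0834) and Csf1r at 0.53 (0.091), and without the Xist-high pools they were at -0.91 (0.308), 0.59 (0.268) and 0.45 (0.098). Medians were 1.49 for the adrenal cortex, 1.52 for Schwann glia, 0.42 for the urothelium, 0.42 for the gonad and -0.07 for the endothelium, with no call by limma in these 5 lists and 3 genes in all at an unadjusted p under 0.05. Sums of some lists differed widely between pools of a genotype. Adrenal cortex markers summed to 3516 to 32889 in homozygous pools and to 144, 168, 4599, 4582 and 17148 in control pools 1 to 5. Gonad markers summed to 49.3 to 8698 in homozygous pools and to 9.24, 24.8, 8226, 8.80 and 6168 in control pools 1 to 5. A lack of calls therefore does not show that the pools held these tissues alike, and the causes were not tested.

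Exchangers of intercalated and distal cells did not share a direction. Their 4 genes had a median of 0.18, and none was called by limma, with 2 at an unadjusted p under 0.05, 1 in each direction. Slc4a9, a basolateral exchanger of intercalated cells, had 74.4, 104, 119, 149 and 68.3 in homozygous pools, against 325, 191, 290.0, 160.3 and 134 in control pools. Only homozygous pool 4 lay above the lowest control pool, and the difference was -1.08 ± 0.32 (adjusted p = 0.139). Slc26a4, the apical chloride and bicarbonate exchanger pendrin, was at -0.10 ± 0.31 (95% interval -0.80 to 0.60, adjusted p = 0.922). Markers of intercalated cells summed to 95.1 to 229 in homozygous pools and 301 to 433 in control pools, with 0 of 5 called by limma, 3 at an unadjusted p under 0.05 and a median of -1.10. Of these 5, Atp6v0a4 (0.23) and Aqp6 (0.30) lay above 0. All but Foxi1 had a mean intensity under 100 in both genotypes and at least 1 array at the floor.

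Slc26a7, an anion exchanger known from the basolateral side of acid-secreting intercalated cells and from the stomach, was the one member with every homozygous pool above every control pool. Its values were 1304, 1089.6, 2358, 2542 and 1929 in homozygous pools 1 to 5 and 1029.7, 1040.5, 805, 922 and 694 in control pools 1 to 5. Homozygous pool 2 exceeded control pool 2 by little, and the 3 highest values were those of the Xist-high pools. The difference was 0.98 ± 0.25 (SE; adjusted p = 0.098), with 0.89 in its dimmer probe set. Without the Xist-high pools it was 0.42 (adjusted p = 0.586). Without homozygous pool 2 the adjusted p was 0.0499. Slc4a1, the anion exchanger of red cells and intercalated cells, had 885, 409.5, 545, 393 and 936 in homozygous pools and 398, 248, 462, 883 and 376 in control pools, which overlapped widely (0.45 ± 0.38, adjusted p = 0.63). Red cell markers summed to 5576 to 14438 in homozygous pools and 5549 to 7293 in control pools, with none of 6 called and none at an unadjusted p under 0.05, and their part in Slc4a1 was not tested.

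**Figure D4:**
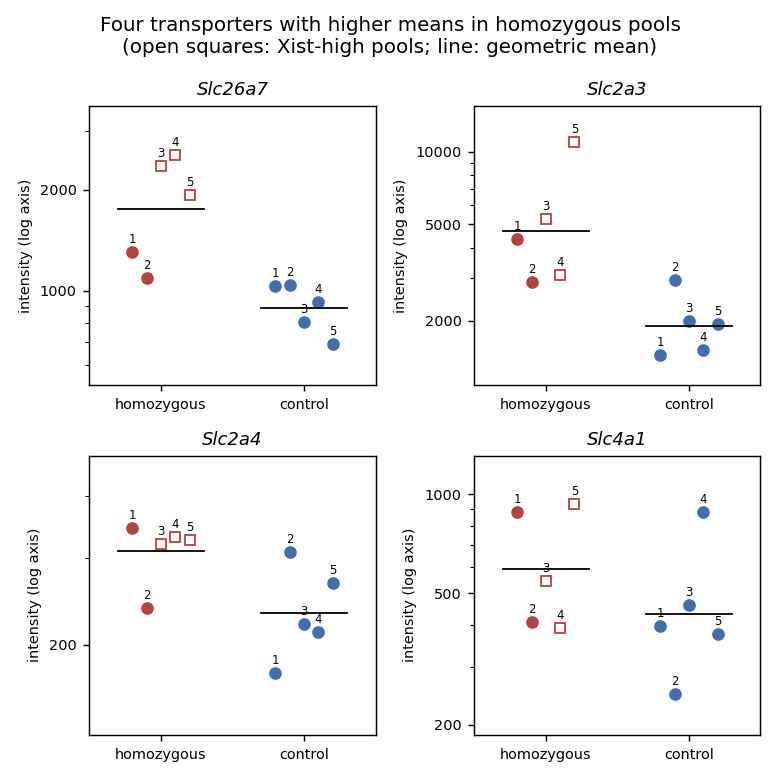
Intensity (log axis) of 4 transporter genes with higher means in homozygous pools (left, red) than in control pools (right, blue); open squares are the Xist-high pools 3, 4 and 5 and lines are geometric means. Slc26a7 separates the genotypes narrowly, between 1089.6 and 1040.5, and the other 3 genes overlap.

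Slc2a3, the high-affinity glucose transporter of neurons and of several embryonic tissues, had the largest positive difference of the members. Homozygous pools 1 to 5 gave 4358, 2899, 5256, 3102 and 11011, against 1439, 2933, 1992, 1514 and 1933 in control pools. Homozygous pool 2 lay just below control pool 2, so the groups overlapped, and pool 5, one of the arrays of high actin ratio, stood highest. The difference was 1.31 ± 0.37 (SE; adjusted p = 0.126). It was 0.90 (0.152) when the high-ratio actin arrays were left out and 0.91 (0.477) when the Xist-high pools were. Of its other probe sets 1 was at 1.76 and a pair near the floor at 0.00 and -0.00. Its brightest probe set ends in s_at and the one at 1.76 in x_at, endings that Affymetrix gives to sets that can match several transcripts.

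The 8 vesicular and neuronal transporters, Slc2a3 included, had a median of 0.22, with none below 0 and none called by limma. This shared sign was not stable. Over alternative fits Slc4a8 lay below 0 in 10 of 19, Slc17a7 in 7, Slc17a9 in 5, Slc5a7 in 2 and Slc17a6 in 1. Slc2a13 did so in 1 of 20, and Slc2a3 and Slc4a10 in none. Of the 4 other probe sets of Slc4a8, 3 lay below 0, down to -0.55. Slc2a3 was the 1 gene with an unadjusted p under 0.05, and the vesicle carriers were dim. The choline transporter Slc5a7 was at 0.21 ± 0.34 (SE), the glutamate vesicle transporters Slc17a6 and Slc17a7 at 0.23 ± 0.67 and 0.00 ± 0.32, and the nucleotide vesicle transporter Slc17a9 at 0.02 ± 0.45. The neuronal bicarbonate transporters Slc4a8 and Slc4a10 were at 0.04 ± 0.34 and 0.63 ± 0.51, and the inositol transporter Slc2a13 at 0.25 ± 0.20. Adjusted p-values of these 7 genes lay at 0.618 or above. Markers of neurons and chromaffin cells summed to 6663 to 18443 in homozygous pools and 1002 to 4400 in control pools. All 10 measured were above 0 with a median of 2.92, and none was called by limma, although each had an unadjusted p under 0.05. The part of these cells in Slc2a3 and the other neuronal members was not tested.

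Carriers of endosomes, lysosomes and the Golgi apparatus, 6 genes, had a median of 0.16 and no call by limma, with 1, Slc9a9, at an unadjusted p under 0.05. The endosomal proton exchanger Slc9a9 had 238, 209.9, 376, 246 and 245 in homozygous pools and 223, 215, 163, 185 and 144 in control pools (0.49 ± 0.19, adjusted p = 0.255). Homozygous pool 2 alone reached into the control values. The lysosomal sialic acid exporter Slc17a5 was at -0.13 ± 0.08, the intracellular sugar transporter Slc2a8 at 0.12 ± 0.38 and the trans-Golgi exchanger Slc9a7 at 0.26 ± 0.35. Their adjusted p-values were 0.473 or above.

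Phosphate import for general cell needs is provided by the Slc20a family. Slc20a1 had 2684, 2301, 2225, 2227 and 1676 in homozygous pools and 2327, 2063, 2449, 2239.7 and 2316 in control pools. Its log2 difference of -0.05 had a 95% interval of -0.31 to 0.21, and its other probe sets were at 0.37 and 0.25. Slc20a2 had 1256, 1266, 1129, 1119 and 853 in homozygous pools and 1168, 932, 1302, 1360.3 and 1308 in control pools, with a difference of -0.11 and an interval of -0.42 to 0.20. Both genes overlapped widely between the genotypes. The inositol cotransporter Slc5a3 was at -0.18 ± 0.14 (adjusted p = 0.603), with values from 2669 to 3547 in homozygous and from 2733 to 4634 in control pools.

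Further transporters of other epithelia and of muscle varied without a call by limma. The insulin-regulated glucose transporter Slc2a4 had 345, 238, 321, 331 and 326 in homozygous pools and 175, 309, 220.4, 212 and 267 in control pools (0.41 ± 0.17, adjusted p = 0.297). Markers of skeletal muscle, a tissue that uses Slc2a4, ranged from 4771 to 35334 in homozygous pools and from 467 to 37940 in control pools, with 0 of 7 called and 0 unadjusted, and those of smooth muscle from 12705 to 34355 in homozygous and from 8252 to 21774 in control pools, with 0 of 5 called by limma and 3 at an unadjusted p under 0.05. Their part in Slc2a4 was not tested. The sulfate transporter of cartilage and other tissues, Slc26a2, was at -0.58 ± 0.33 (adjusted p = 0.45). Cartilage markers summed to 1009.8 to 2137 in homozygous pools and 1249 to 16078 in control pools, the highest in control pool 5, whose Slc26a2 value of 945 was the second highest of its group. The urate transporter Slc2a9 (0.07 ± 0.17), the citrate transporter Slc13a5 (-0.06 ± 0.25), the anion exchanger Slc26a6 (0.03 ± 0.28) and the phosphate transporter Slc34a2 (-0.09 ± 0.27) had adjusted p-values of 0.878 or above.

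Beside the 5 proximal transporters, 2 further members had every homozygous pool below every control pool, both with means under 100, Slc9a2 and Slc5a6. They are 3.7% of the members outside the proximal tubule list, and 2.1% of all genes had this order. The sodium and proton exchanger Slc9a2 had 60, 41.0, 42.5, 36.9 and 35.8 in homozygous pools and 73.8, 84.2, 78.7, 68.4 and 60.5 in control pools (-0.77 ± 0.16, adjusted p = 0.0624). Homozygous pool 1 and control pool 5 were separated by little. Slc5a6, the multivitamin cotransporter, lay between 39.4 and 53.6 in homozygous pools and between 54.5 and 103 in control pools (-0.63 ± 0.18, adjusted p = 0.123). Slc5a11, an inositol cotransporter, was under the floor in all homozygous pools and at up to 54.7 in control pools. Slc26a10 had up to 27.8 in homozygous pools and was under the floor in all control pools. Both overlapped once values under the floor were taken as equal. Slc9a2 and Slc5a6 had no value under the floor. Slc5a11 and Slc26a10 are among the 19 members with at least 1 array at the floor, and the share of probe sets at the floor also separated the genotypes.

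Of the 4 members that encode no transporter, none was called by limma, 1 (Slc4a1ap) had an unadjusted p under 0.05 and the median was -0.33. Slc9a3r1, the scaffold that anchors Slc34a1 and Slc9a3 at the apical membrane, had 3276, 3867, 3792, 3909.9 and 5058 in homozygous pools and 8475, 3729.6, 5167, 4877 and 4399.7 in control pools. Control pool 1 stood alone at the top, and the difference was -0.38 ± 0.21 (adjusted p = 0.452). Slc4a1ap, an adaptor protein gene, was at -0.28 ± 0.09 (adjusted p = 0.169).

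Probe sets of a gene did not always give the same sign. Several probe sets measure 35 members, and 19 of these had one whose difference was opposite in sign to that of the brightest one. Among the proximal transporters, both probe sets of Slc5a1, of Slc5a12, of Slc13a1 and of Slc26a1 lay below 0, while Slc5a2, Slc9a3, Slc13a3 and Slc4a4 each had a dimmer probe set above 0, at 0.55, 0.09, 0.20 and 0.04. Slc5a8, Slc34a1, Slc2a2, Slc17a1, Slc17a3, Slc5a10, Slc13a2 and Slc34a3 are measured by a single probe set each.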

How the data were processed

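Per the labels' protocols, Trizol was used for extraction, and 1 ug of total RNA was turned into biotinylated cRNA for each of 5 separate pools a genotype. The p-values set the difference between genotypes against the spread between such pools, which limma moderates by that of all genes. The authors deposited 1 linear intensity per probe set and array; how probe sets were summarized is not given in the sources used here. The trimmed mean (2% off each end) was 500 on all arrays, so a change of total RNA is not measured. The series design text describes another experiment, and groups follow the sample labels. The titles of homozygous pools 1 to 4 alone end in CHP, and whether these arrays were handled apart was not tested.

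For this work, 64 Affymetrix control probe sets of 45101 were left out, intensities under 16 were set to 16 and log2 was taken. The platform annotation gave 34945 probe sets a single symbol, and 1 further probe set of these families carries several symbols and was not counted. Each gene was represented by the probe set of highest mean, and levels were not compared between probe sets. The genotypes' log2 intensities were tested by limma 3.58.1 under R 4.3.3 (lmFit, then trended eBayes, two-sided, no block) on all genes and on all probe sets, with Benjamini-Hochberg adjustment over the whole table. Coordinates and names come from the GRCm38.p6 gene table, and promoters from the RefSeq promoter table of that build (GTTAAT and TATAAA were added after seeing the data).

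The members, role groups, marker lists and partner genes were chosen with earlier results of these data known. Named genes are the members called, the brightest of each family, the 12 most negative and 8 most positive members of mean intensity 100 or more, and 35 transporters of known nephron segments, neurons and vesicles, of which 33 were analysed here. Slc9a2, Slc5a6, Slc5a11, Slc17a2 and Slc26a10 were named after their values were seen. Alternatives concerned the floor, the normalization, dim genes, probe sets of a gene, the variance model, array weights, the replicate number as a block, and leaving out pools. Deviations of same-numbered pools from their group means correlated at -0.55 to -0.17, so same-numbered pools were not alike. This cannot exclude that they were handled together, and the labels name no pairing.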

Additional observations from a re-analysis of the deposited data

Results flagged for a closer look

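In 9 of the 86 groups of 5 pools tested (2 for each of the 43 named genes), 1 pool stood far from the other 4 by Dixon's criterion, which chance meets in about 1 in 20 groups. The criterion was applied to log2 values after the floor was set. Values at the floor are then equal, so this rate does not hold for groups with such values. Slc2a4 was lowest in homozygous pool 2, at 238 beside 321 to 345 in the other homozygous pools. In Slc2a8 control pool 1, an array of high actin ratio, was lowest at 63.4, beside 182 to 229. Slc9a9 was highest in homozygous pool 3, at 376 beside 209.9 to 246. For Slc26a4 control pool 5 was highest at 89.5, beside 50.2 to 58.3.

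The other 5 concern dim neuronal or vesicular genes. Slc4a8 was at 8.63 in homozygous pool 1, beside 42.6 to 62.7 in the rest of that group, and Slc4a10 at 9.21 in homozygous pool 2, beside 47.8 to 58.3. Slc17a6 was at 112 in homozygous pool 1, beside 4.55 to 26, and at 78.7 in control pool 4, beside 0.908 to 17. In each genotype 3 of its 5 values were under the floor and taken as equal. Slc17a9 was at 23.5 in control pool 5, beside 54.3 to 66.9. None of these genes was called by limma, and the causes were not tested.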

How the results depend on the processing

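Counts of calls depended on the processing. Of 846 recomputed log2 differences of the 43 named genes over 20 alternatives, 37 lost and 13 gained a call, and no called value changed sign; 59 uncalled values, of 16 genes, did, the largest of these genes being Slc13a2 (-0.64, and 0.36 without the Xist-high pools). Over all genes 176 calls became 95 with a floor of 32, 331 without dim genes, 109 with the mean of a gene's probe sets, 951 with array weights, 1 with the replicate block, 23 without the high-ratio actin arrays, 28 without the Xist-high pools and 3 to 414 with a pool left out. Of the members, 3 genes were called with limma. This became 1 (Slc34a1) with a floor of 32, 3 with quantile normalization (Slc9a2 in place of Slc5a1), 6 without dim genes (Slc2a2, Slc17a1 and Slc17a3 added) and 8 with array weights (6 lower, with Slc2a2, Slc9a2 and Slc26a1 added, and 2 higher, Slc26a7 and Slc2a3). It became 0 with the replicate block, without the high-ratio actin arrays and without the Xist-high pools (19, 24 and 17 with an unadjusted p under 0.05), and 0 to 4 with a pool left out. Shares of all genes at an unadjusted p under 0.05 are not given here for these fits. For member probe sets, 1 call became 4 without a floor, 6 without dim probe sets, 5 with array weights, 0 in the same 3 fits (25, 33 and 20 unadjusted) and 0 to 2 with a pool left out. No proximal tubule marker was called by limma with the replicate block (7 of 8 unadjusted). The members' median stayed between -0.19 and -0.10. Causes of these shifts were not tested beyond the fewer genes or pools that some alternatives use. With 5 pools a genotype and 32 dim members, small differences of dim genes were not detectable.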
